A study of Homo sapiens with 18 samples.

Results

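The genes described are those for the nuclear-encoded subunits of the oxidative phosphorylation system in RNA-seq of platinum-sensitive and platinum-resistant ovarian cancer cell lines. They were chosen by name only, as the rows whose whole gene symbol is NDUF followed by A, B, C, S or V and a number, SDH and a letter from A to D, UQCR followed by capital letters or digits, CYC1, COX and a number from 4 to 8 followed by a letter from A to C and at most 1 digit, or ATP5 and a letter with at most 1 digit. COX7A2L, with a further letter, is therefore outside the rule. This found 73 of the 12853 genes in the expression table, of which 33 encode subunits of complex I, 4 of complex II, 9 of complex III, 10 of complex IV and 15 of complex V. NDUFA4 was counted with complex IV, to which it is now assigned. The other 2 genes matched by name only: UQCRFS1P1 is a processed pseudogene, and ATP5S (now DMAC2L) is known as a factor of ATP synthase rather than a subunit. No member was removed by a filter on low values, and 68 of the 73 had a mean above 4 on the log2 scale used here. The symbols are those of the table, which predate the present names of the ATP synthase genes.

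RNA was measured in 3 sensitive lines and 3 resistant lines derived from the same origin, with 3 libraries per line. CP70 is a derivative of A2780, a line that the labels call endometrial or ovarian, made resistant in culture. PEA1 and PEA2 are cells of 1 high-grade serous ovarian cancer (HGSOC), both taken from ascitic fluid, the first when no platinum had yet been given and the second once the disease had come back and no longer responded. PEO1 and PEO4 came from another patient with HGSOC, both after platinum-based therapy, before and after clinical resistance developed. All 6 lines were cultured in RPMI-1640 medium with glutamine and fetal bovine serum, and the labels name no drug given to these cultures. Each pair is therefore 1 sensitive and 1 resistant line, and the labels do not say that the 3 libraries of a line came from separate cultures, so that the p-values below measure only the spread between these libraries.

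Oxidative phosphorylation takes place in the inner mitochondrial membrane. Complex I oxidises NADH and complex II oxidises succinate, complex III passes the electrons from ubiquinol to cytochrome c, and complex IV passes them to oxygen. Complexes I, III and IV pump protons across the membrane, and complex V, the ATP synthase, uses their return to make ATP. Complexes I, III, IV and V are built from subunits of the nuclear genome and of mitochondrial DNA, and complex II from nuclear subunits alone. The 13 subunits encoded in mitochondrial DNA, and the nuclear genes COX7B2, COX8C, COX6A2, NDUFV2, NDUFA7, NDUFA13, COX7A1 and COX6B2, were not analysed here.

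Values are log2 CPM (counts scaled to a fixed total of reads per library), as deposited, and a change is the mean of the resistant line minus the mean of its sensitive line. Libraries held from 1344098 to 7067336 reads on the listed genes, and the 73 genes took from 0.408% to 0.954% of these reads. By line, this share was 0.924% ± 0.050 (SD, n = 3) in A2780, 0.752% ± 0.017 in CP70, 0.591% ± 0.014 in PEA1, 0.428% ± 0.021 in PEA2, 0.566% ± 0.021 in PEO1 and 0.604% ± 0.012 in PEO4. In bulk RNA, fewer cells of a type and less RNA per cell cannot be told apart. Of the HGSOC markers, PAX8 and WT1 were absent or nearly so from A2780 and CP70 (at most 1 read in any library) and present in the other 4 lines. Within the PEA pair the markers moved strongly. All 8 epithelial and ovarian markers were measured, with 7 in PEA1 and 8 in PEA2 above 3 reads in a library, and their summed level was 484 to 649 CPM in the PEA1 libraries and 2380 to 2681 CPM in the PEA2 libraries. Of 10 leukocyte, endothelial and fibroblast markers, 5 were measured. COL1A1 gave most of their sum of 366 to 447 CPM in PEA1, and their sum in PEA2 was 48.9 to 66.7 CPM with reads of PTPRC and CDH5, which had no reads in PEA1. In the A2780 pair, the epithelial sum was 2.24 to 3.13 CPM in A2780 and 90.8 to 96.8 CPM in CP70. In the PEO pair it was 5374 to 6534 CPM in PEO1 and 5414 to 7167 CPM in PEO4. Single markers still moved there, with 2 of the 8 called higher and 1 lower. MECOM changed by -5.31 and WT1 by 1.44 (limma FDR 4.63e-08 and 0.00243). The sum of the 5 other markers was 4.90 to 12.5 CPM in A2780 and 38.7 to 45.5 CPM in CP70. It was 3.26 to 7.39 CPM in PEO1 and 14.6 to 17.0 CPM in PEO4. Of these 5, COL1A2 rose by 5.20 in CP70 and by 4.30 in PEO4 (limma FDR 1.06e-07 and 1.94e-06). The part of these marker differences in the results below was not tested.

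Many genes of this system carry promoter sites for the factors NRF1, GABPA (the DNA-binding subunit of NRF2) and YY1. Promoter sequence was taken from RefSeq (build GRCh38.p14), which had a window of 300 bases around the start for 57 of the 73 genes, in 69 windows. Among the names without one were ATP5B, ATP5D, ATP5G3, ATP5J2, ATP5S, COX6C, CYC1, NDUFA4, NDUFB5, NDUFB9, NDUFC2, NDUFS5, SDHC, UQCRB and UQCRFS1P1. Both strands were searched for exact letters. The NRF1 letters GCGCATGC stood in 15 of the 69 windows (21.7%), against 3.05% of all 35116 windows and 4.65% of the 14142 windows of genes in the expression table. The YY1 letters AAGATGG stood in 18 (26.1%), against 5.84% and 6.93%, and the GABPA letters CCGGAAG in 19 (27.5%), against 10.3% and 16.9%. The letters TCAAGGTCA, bound by the estrogen-related receptor, stood in 1 window (1.45%), against 0.353% and 0.163%. The 4 strings do not overlap in their letters beyond a few bases, but the NRF1 string can match itself again in overlapping positions, as it does at ATP5C1. These matches describe the sequence and were not tied to any measured binding.

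The 250 bases before the first listed start are shown for 6 genes on which the results turn: UQCRH, which was nearly lost in the PEA lines; ATP5C1, which had the same large fall in PEA2 as ATP5F1; ATP5G1 and ATP5G2, which share the c subunit with ATP5G3; and ATP5L and SDHA, which with ATP5G1 were lower in every resistant line. Each is written 5′ to 3′ in the direction of the gene and ends at the base before the start, and capitals mark a match to one of the strings on either strand.
UQCRH (chr1:46303448-46303697, plus strand): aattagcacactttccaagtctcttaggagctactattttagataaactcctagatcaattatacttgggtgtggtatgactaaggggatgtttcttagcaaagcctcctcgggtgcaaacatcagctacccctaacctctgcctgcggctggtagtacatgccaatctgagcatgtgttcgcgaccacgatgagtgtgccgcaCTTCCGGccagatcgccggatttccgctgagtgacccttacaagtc
ATP5C1 (chr10:7787927-7788176, plus strand): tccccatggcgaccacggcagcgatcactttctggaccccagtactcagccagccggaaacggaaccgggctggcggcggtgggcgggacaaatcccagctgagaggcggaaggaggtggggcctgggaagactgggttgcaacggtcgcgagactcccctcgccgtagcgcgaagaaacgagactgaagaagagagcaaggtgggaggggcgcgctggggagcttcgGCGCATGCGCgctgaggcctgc
ATP5G1 (chr17:48892537-48892786, plus strand): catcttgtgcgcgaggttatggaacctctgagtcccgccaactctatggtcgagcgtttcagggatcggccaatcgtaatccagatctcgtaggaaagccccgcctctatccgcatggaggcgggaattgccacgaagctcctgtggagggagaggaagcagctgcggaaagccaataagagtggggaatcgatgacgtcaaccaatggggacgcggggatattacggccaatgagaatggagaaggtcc
ATP5G2 (chr12:53676084-53676333, minus strand): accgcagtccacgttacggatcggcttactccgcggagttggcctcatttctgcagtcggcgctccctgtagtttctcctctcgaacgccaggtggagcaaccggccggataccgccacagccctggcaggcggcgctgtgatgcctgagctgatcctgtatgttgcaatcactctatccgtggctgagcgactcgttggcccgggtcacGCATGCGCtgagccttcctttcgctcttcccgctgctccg
ATP5L (chr11:118401356-118401605, plus strand): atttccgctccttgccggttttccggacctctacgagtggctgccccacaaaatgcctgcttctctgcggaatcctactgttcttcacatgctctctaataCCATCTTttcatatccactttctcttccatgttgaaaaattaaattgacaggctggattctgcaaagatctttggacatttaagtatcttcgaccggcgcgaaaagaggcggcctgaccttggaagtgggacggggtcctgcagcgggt
SDHA (chr5:218070-218319, plus strand): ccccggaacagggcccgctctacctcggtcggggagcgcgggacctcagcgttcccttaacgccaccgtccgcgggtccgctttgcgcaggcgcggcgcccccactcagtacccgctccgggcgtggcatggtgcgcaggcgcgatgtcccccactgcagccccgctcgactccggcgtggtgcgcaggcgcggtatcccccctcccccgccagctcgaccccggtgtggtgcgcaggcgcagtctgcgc
The UQCRH stretch held the GABPA string, starting 46 bases before the start, the ATP5C1 stretch 2 overlapping NRF1 matches at 22 and 20 bases, the ATP5G2 stretch an NRF1 match at 40 bases and the ATP5L stretch a YY1 match at 149 bases. The ATP5G1 and SDHA stretches held none of the 4 strings.

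The first question was whether the genes of the system moved together between a sensitive line and its resistant partner. In CP70 the called genes were lower with 1 exception, and in PEA2 and PEO4 they went both ways. A gene was called at a false discovery rate (FDR) below 0.05 with limma, adjusted over all 12853 genes. In CP70, 1 of the 73 genes was higher than in A2780 and 19 were lower, beside 22.2% of all genes called higher and 17.7% called lower. In PEA2, 17 were higher than in PEA1 and 23 were lower, beside 32.5% and 29.4% of all genes. In PEO4, 15 were higher than in PEO1 and 13 were lower, beside 19.6% and 21.9%. As shares of the 73, the genes called lower were 26%, 31.5% and 17.8% in the 3 pairs and those called higher were 1.37%, 23.3% and 20.5%. Both shares in PEO4, and the share called lower in PEA2, lay near those of all genes. The share called higher in PEA2 lay under its background (23.3% against 32.5%), and that in CP70 lay far under it. When each library was scaled by quantiles, the PEA2 split moved to 13 higher and 31 lower, and centring each library on its median gave 13 and 27. Both scalings moved the median change of all genes in the PEA pair from 0.01 to -0.10, and moved it by less than 0.1 in the other pairs. Shares of all genes called were taken in the main fit only. Counts under other scalings therefore have no background beside them and cannot be set against the shares above.

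Changes of over 2-fold (|log2FC| above 1) at the same FDR were made by 1 gene in CP70, 16 in PEA2 and 6 in PEO4, beside 19.2%, 33.6% and 18.8% of all genes. With the bound of 2 on |log2FC| that the study applied, 0, 2 and 1 of the genes passed, against 1165, 1809 and 800 of all genes. The median change was -0.25 in CP70, -0.17 in PEA2 and -0.12 in PEO4, where the median of all genes was -0.02, 0.01 and -0.02. In CP70, 60 of the 73 genes lay below 0, against 44 in PEA2 and 44 in PEO4. These are genes with short transcripts (median canonical length 857 bases, against 3314 for all genes with a length). Of the other genes, 1101 had transcripts under 1000 bases, and their median change was -0.17 in CP70, 0.03 in PEA2 and 0.03 in PEO4. In CP70, therefore, other short genes also had a median below 0, and 10.7% of them were called higher and 15% lower. Of the 73 genes, only 40 had transcripts under 1000 bases, so these other genes are not matched to them. Over all genes with a length, the rank correlation of change with length was 0.07 in CP70, -0.05 in PEA2 and -0.05 in PEO4. The part of transcript length in the changes was not tested.

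**Figure D1:**
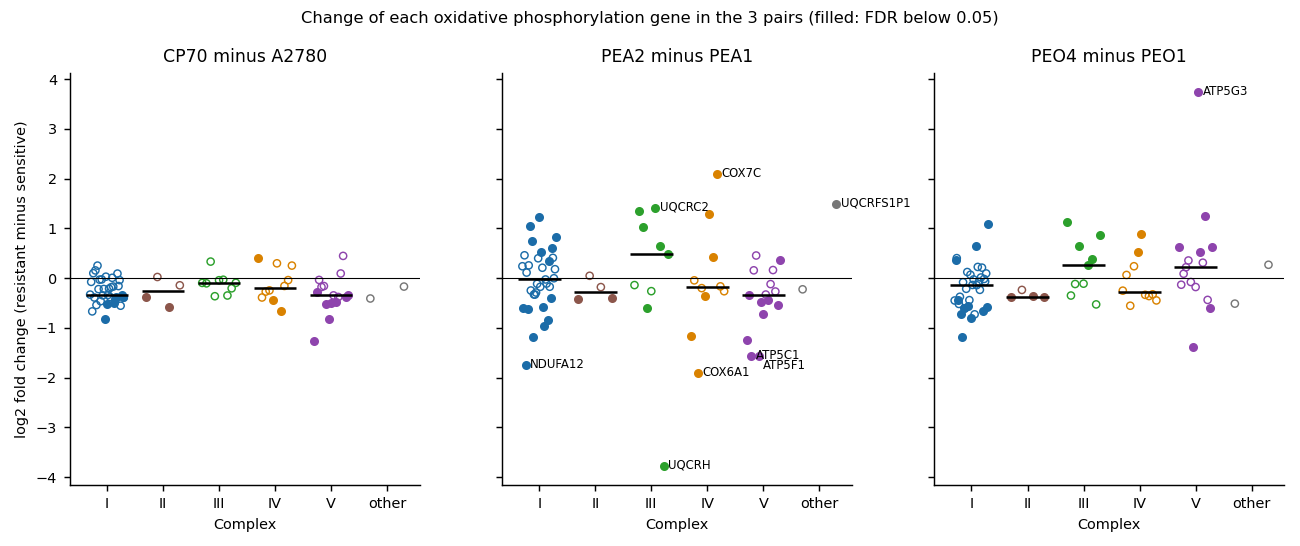
Change of each gene (log2 fold change, resistant minus sensitive line, vertical axis) by complex in the 3 pairs; filled points passed an FDR of 0.05 with limma, open points did not, and bars are medians over the genes of a complex. Changes were small in CP70 and spread widely in PEA2, where UQCRH (-3.77) and COX7C (2.09) lay at the ends, and ATP5G3 (3.74) stood alone in PEO4.

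Only 3 genes were called lower in all 3 resistant lines, and none was called higher in all 3, beside 1.21% and 1.59% of all genes. The 3 were SDHA, ATP5L and ATP5G1. SDHA, the flavoprotein that oxidises succinate in complex II, had values of 7.57, 7.22 and 7.46 in A2780 and 7.10, 7.02 and 6.99 in CP70. Its values were 7.86, 7.69 and 7.70 in PEA1 and 7.45, 7.35 and 7.16 in PEA2. In the PEO pair they were 7.87, 7.69 and 7.64 in PEO1 and 7.30, 7.34 and 7.40 in PEO4. No library of a resistant line reached the lowest library of its partner in any pair. The 3 changes of SDHA were nearly of 1 size, at -0.38 ± 0.10 (SE), -0.43 ± 0.10 and -0.38 ± 0.10 (limma FDR 0.00458, 0.00105 and 0.0041).

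ATP5L, the g subunit in the membrane part of ATP synthase, changed by -0.38 ± 0.12 (SE), -0.54 ± 0.12 and -0.60 ± 0.12 in the A2780, PEA and PEO pairs (limma FDR 0.0166, 0.000701 and 0.000487). Its call in the A2780 pair rested on single libraries, since the FDR was 0.102 without A2780 replicate 1, 0.0663 without A2780 replicate 3 and 0.0575 without CP70 replicate 2. ATP5G1 changed by -0.83 ± 0.14, -0.49 ± 0.14 and -1.38 ± 0.14 (limma FDR 4.96e-05, 0.00404 and 9.16e-08) and is described with the other c subunit genes. Opposite calls were also made, by a smaller share than among all genes. In all, 13 genes (17.8%) were higher in 1 resistant line and lower in another, beside 27.5% of all genes. By number of pairs, 23 genes were called in no pair, 20 in 1 pair, 22 in 2 pairs and 8 in 3 pairs.

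A model over all 18 libraries, with the pair and the sensitivity as terms, called 4 genes higher and 17 lower in the resistant lines, beside 12.5% and 11.6% of all genes. The lower genes included SDHA, SDHC and SDHD of complex II and ATP5B, ATP5F1, ATP5G1, ATP5G2 and ATP5L of ATP synthase. The higher genes were COX7A2, UQCRC2, ATP5J and UQCRQ, of which UQCRQ, a small subunit of complex III, is named here after its value was seen. This model counts libraries of a line as independent. With the 3 pair differences as the replicates, 0 of the 73 genes passed an FDR of 0.05 in limma, and 2 had an unadjusted p below 0.05, 1 of them lower. No share of all genes was taken for that fit, so these counts do not set the 73 genes apart from others.

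The mean level of each complex was compared across the lines. No complex II gene was called higher in any pair, and complex V had mostly lower calls in CP70 and PEA2 and more higher than lower calls in PEO4. The counts by complex stand beside the shares of all genes called, which were 22.2% higher and 17.7% lower in CP70, 32.5% and 29.4% in PEA2, and 19.6% and 21.9% in PEO4. With 4 to 33 genes in a complex, such counts are descriptions. Of the 4 complex II genes, 2 were called lower in CP70, 2 in PEA2 and 3 in PEO4 (1 without PEO4 replicate 3), and none higher. SDHC, a membrane anchor, changed by -0.59 ± 0.13 (SE) in CP70 (limma FDR 0.0014) and by -0.37 ± 0.13 in PEO4 (limma FDR 0.0317, but 0.0512 to 0.194 without PEO1 replicate 3 or any 1 of the PEO4 libraries). SDHD, the other anchor, changed by -0.39 ± 0.12 in PEA2 and -0.39 ± 0.12 in PEO4 (limma FDR 0.00717 and 0.0131). The PEO4 call of SDHD was lost without PEO1 replicate 3 (FDR 0.0748) or PEO4 replicate 3 (FDR 0.0676). SDHB, the iron-sulfur subunit, had changes of 0.02, 0.05 and -0.24, none of which passed the test. As a mean over its genes, complex II was at 6.86 ± 0.09 (SD, n = 3) in A2780 and 6.59 ± 0.03 in CP70, at 6.69 ± 0.05 in PEA1 and 6.45 ± 0.13 in PEA2, and at 6.46 ± 0.04 in PEO1 and 6.12 ± 0.04 in PEO4.

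**Figure D2:**
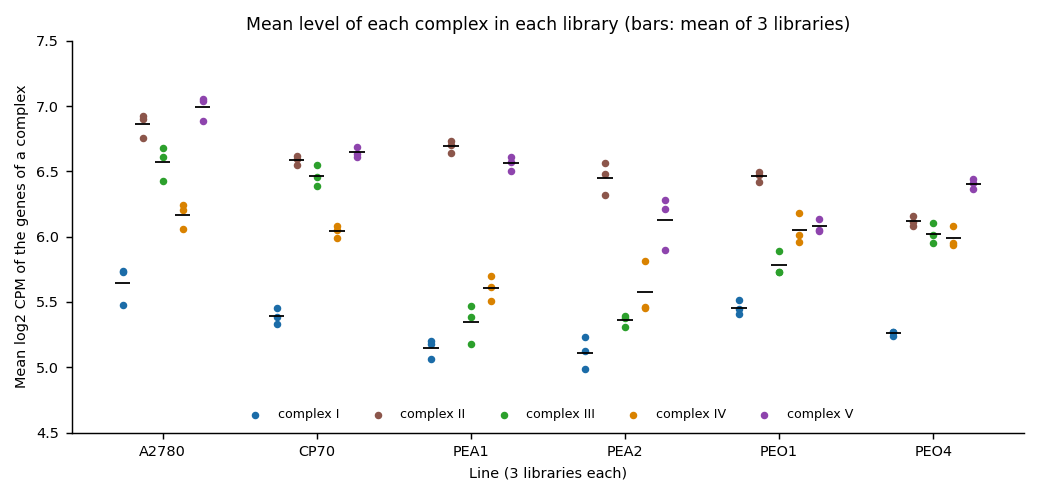
Mean log2 CPM over the genes of each complex (vertical axis, which does not start at 0) in each of the 18 libraries by line, with a bar at the mean of 3 libraries. Complex II was lower in each resistant line, and complex V was lower in CP70 and PEA2 but higher in PEO4 (6.41) than in PEO1 (6.08). ATP5G3, with few reads in PEO1 and a change of 3.74, weighs heavily in this last difference. The median change of the 15 complex V genes in PEO4 was 0.22.

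Complex I has 33 genes here, with a core that carries electrons and many accessory subunits. In CP70, 7 were lower and 0 higher, but 4 were lower without A2780 replicate 1 or CP70 replicate 3, and 11 with voom weights or with only the libraries compared. In PEA2, 8 were lower and 7 higher (12 and 6 after quantile scaling), and in PEO4, 8 were lower and 3 higher. Of the core genes that carry the flavin and iron-sulfur clusters, NDUFS1 was lower in CP70, by -0.51 ± 0.10 (SE; limma FDR 0.00023). NDUFV1, which binds NADH and the flavin, was lower in PEO4, by -0.58 ± 0.14 (limma FDR 0.00206). Its change of -0.38 ± 0.14 in CP70 passed the test (limma FDR 0.035), but not when any 1 of A2780 replicate 1, A2780 replicate 3, CP70 replicate 2 or CP70 replicate 3 was left out (FDR 0.0972 to 0.156). NDUFS8 changed by -0.35 in CP70 (limma FDR 0.02, but 0.144 without A2780 replicate 1 and 0.0742 without CP70 replicate 3). NDUFS7 had changes of -0.56, 0.41 and -0.07, none of which passed the test in the main fit. The first passed under several alternatives, with an FDR of 0.0413 after centring, 0.013 with only the libraries compared and 0.00524 with voom weights. The second passed without PEA1 replicate 1 (FDR 0.0416).

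The larger changes of complex I were in accessory genes. NDUFA12 had 6.71, 6.36 and 6.63 in PEA1 and 4.99, 4.65 and 4.84 in PEA2, so that every PEA2 library lay over 1 unit under every PEA1 library. Its change was -1.74 ± 0.14 (SE; limma FDR 1.34e-09), a 3.35-fold fall. NDUFB1 changed by -1.18 ± 0.30 in the same pair (limma FDR 0.00201). NDUFB5 went both ways, at -0.52 ± 0.14 in CP70, 1.22 ± 0.14 in PEA2 and -0.80 ± 0.14 in PEO4 (limma FDR 0.00422, 1.95e-07 and 7.8e-05). NDUFA6 changed by 1.05 ± 0.18 in PEA2 and by -1.19 ± 0.18 in PEO4 (limma FDR 5.11e-05 and 2.57e-05). NDUFV3, a small subunit beside the flavin site, rose in PEA2 by 0.83 ± 0.17 and in PEO4 by 1.09 ± 0.17 (limma FDR 0.000278 and 3.22e-05). NDUFB3 had the largest fall of complex I in CP70, of -0.82 ± 0.21 (limma FDR 0.00384).

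Complex III had no gene called in CP70 (0 to 2 lower over the alternatives). In PEA2, 5 of its 9 genes were higher and 2 lower (4 and 4 after quantile scaling, 4 and 3 after centring), and in PEO4, 5 were higher and 0 lower. The PEO4 count fell to 2 without PEO4 replicate 1 and without the variance trend, and to 3 without PEO1 replicate 1, PEO1 replicate 2, PEO4 replicate 2 or PEO4 replicate 3. The calls lost without PEO4 replicate 1 were those of UQCRB (FDR 0.0623), UQCRC2 (0.103) and UQCRFS1 (0.0543). UQCRC2, a core subunit, had 6.34, 6.39 and 6.62 in PEA1 and 7.94, 7.71 and 7.93 in PEA2, a rise of 1.41 ± 0.11 (SE; limma FDR 6.44e-10). UQCR10 and UQCR11, small subunits at the edge of the complex, rose in PEA2 by 1.35 ± 0.22 and 1.03 ± 0.26 (limma FDR 2.68e-05 and 0.00217). UQCRFS1, the Rieske iron-sulfur protein, rose by 0.64 ± 0.14 in PEA2 (limma FDR 0.000468). Its pseudogene UQCRFS1P1 was 1.49 ± 0.31 higher in the same pair (limma FDR 0.000334), and reads of a gene and a near-identical copy may be divided between them in counting. CYC1, the haem-bearing cytochrome c1, had 6.34, 6.54 and 6.62 in PEO1 and 7.55, 7.46 and 7.86 in PEO4. The groups do not overlap, and CYC1 was 2.18-fold higher in PEO4 (1.12 ± 0.13, limma FDR 7.28e-07), whereas its changes in the other pairs were -0.10 and -0.14 and did not pass the test.

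UQCRH had the lowest change of complex III in PEA2, where UQCRB was the other gene called lower (-0.59, limma FDR 0.0222; the call was lost without PEA1 replicate 1, PEA1 replicate 2 or PEA2 replicate 1). UQCRH encodes the acidic hinge protein by which cytochrome c1 meets cytochrome c, and spans chr1:46769370-46782448 on the plus strand of GRCh37. Its values were 5.95, 5.64 and 6.03 in A2780, 5.77, 5.77 and 5.47 in CP70, 5.78, 5.82 and 6.56 in PEO1, and 5.67, 5.49 and 5.41 in PEO4. In PEA1 they were 2.00, 0.83 and 1.66, from 5, 2 and 5 reads, and in PEA2 no library had a read of UQCRH. The other 12 libraries had from 104 to 625 reads of it. Both PEA lines thus lay far under the other 4 lines, and PEA2 under PEA1. The fitted change of -3.77 ± 0.30 (SE; limma FDR 1.39e-09) depends on the 0.5 reads added to each count. With 3 reads set for each PEA2 library and the PEA1 counts taken as exact, UQCRH was 1.99-fold lower in PEA2. The PEA1 counts of 5, 2 and 5 reads lie near the same floor, so this value is not a firm lower bound. A count of 0 limits the level and does not show that the transcript is absent. UQCRH was the sole member with 3 reads or fewer in every library of a line.

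The gene beside UQCRH was looked at after these values were seen. LRRC41 lies on the opposite strand with its start 82 bases from that of UQCRH in the annotation of GRCh37. It had 6.64, 6.55 and 6.27 in A2780, 6.93, 6.93 and 6.81 in CP70, 6.48, 6.31 and 6.76 in PEO1, and 6.57, 6.58 and 6.70 in PEO4. In PEA1 it had 3.90, 4.29 and 4.22, from 20 to 32 reads, and in PEA2 1.79, 2.41 and 2.26, from 6 to 18 reads. LRRC41 was therefore low in the same lines as UQCRH and in the same order, with a change of -1.98 in PEA2 (limma FDR 2.42e-09). The neighbours on either side were not so low: RAD54L stood at 5.72 in PEA1 and 4.48 in PEA2, and NSUN4 at 6.15 and 5.21. Both of these were also called lower in PEA2 (by -1.24 and -0.94, limma FDR 3.84e-07 and 6.16e-05), but in PEA1 they were above their levels in each of the other 4 lines. What underlies the low values was not tested.

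**Figure D3:**
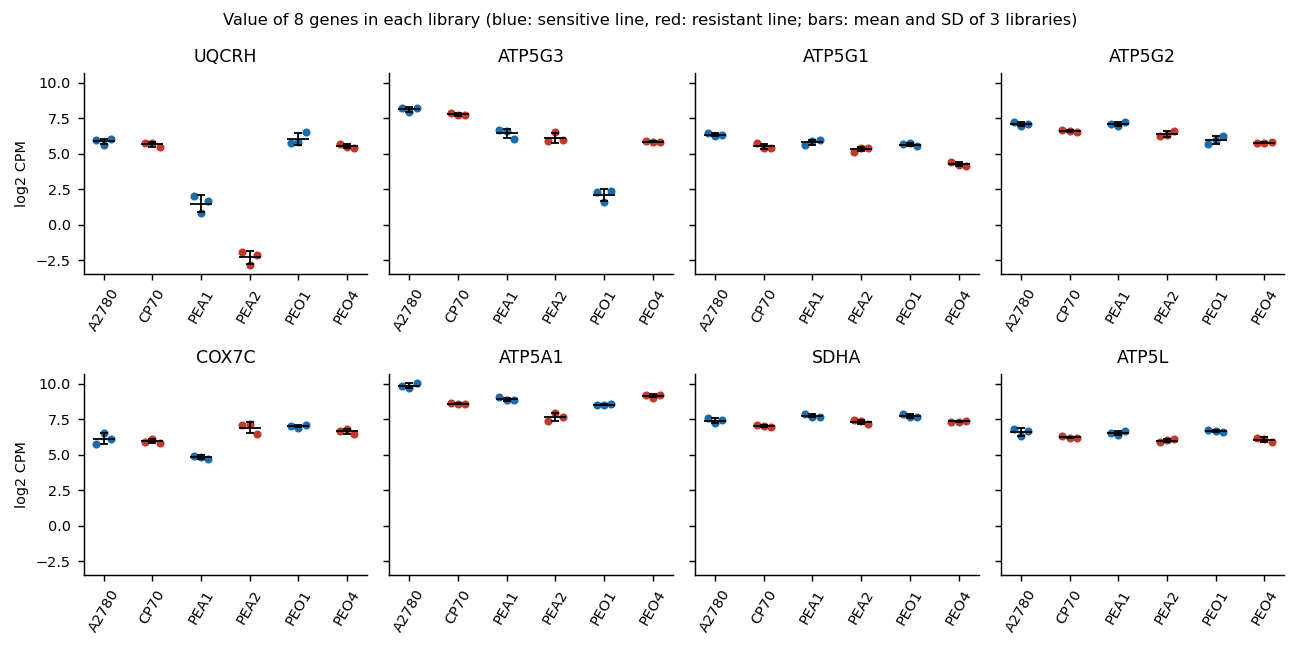
Values of 8 genes in the 18 libraries (log2 CPM, vertical axis, 1 scale for all panels), blue for sensitive and red for resistant lines, with the mean and SD of 3 libraries. UQCRH dropped in both PEA lines alone and ATP5G3 in PEO1 alone, while SDHA, ATP5L and ATP5G1 stepped down within every pair.

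Complex IV had its largest changes in PEA2. In CP70, 1 of its 10 genes was higher and 2 lower, in PEA2 3 were higher and 3 lower, and in PEO4 2 were higher and none lower. In CP70 and PEA2 these numbers lie near what the shares of all genes would give, and the 2 lower in CP70 became 1 without A2780 replicate 1, A2780 replicate 3, CP70 replicate 2 or CP70 replicate 3. COX7C, a small subunit of cytochrome c oxidase, had 4.95, 4.85 and 4.71 in PEA1 and 7.13, 7.18 and 6.45 in PEA2. It was 4.24-fold higher in PEA2 (2.09 ± 0.18 SE, limma FDR 5.35e-09), which brought it from the lowest of the 6 lines to among the highest, beside PEO1 (7.02 ± 0.10 SD). COX7A2, the widely expressed form of subunit 7a, rose by 1.30 ± 0.12 in PEA2 and by 0.89 ± 0.12 in PEO4 (limma FDR 2.09e-08 and 7.37e-06), with 0.30 ± 0.12 in CP70, which did not pass the test (limma FDR 0.0633). It had the largest called rise of the 73 genes in the model over all pairs, at 0.83 ± 0.13.

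COX6A1, the liver-type form of subunit 6a, had 5.25, 5.11 and 4.71 in PEA1 and 3.38, 3.83 and 2.12 in PEA2, a change of -1.91 ± 0.34 (SE; limma FDR 6.62e-05) with a wide spread in PEA2. COX5A was lower in PEA2 by -1.17 ± 0.13 (limma FDR 1.86e-07). COX5A was also the one member called higher in CP70, at 0.41 ± 0.13 (limma FDR 0.0161), a call lost without A2780 replicate 1 (FDR 0.0682) or CP70 replicate 1 (FDR 0.0757). COX7B was lower in CP70 by -0.67 ± 0.14 (limma FDR 0.00052) and higher in PEA2 by 0.43 ± 0.14 (limma FDR 0.0103), the latter with an FDR of 0.0548 without PEA1 replicate 1, 0.0599 after quantile scaling and 0.0506 after centring. COX5B, COX6B1 and COX8A passed the test in no pair, with changes between -0.39 and 0.24.

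Of the 15 genes of complex V, 8 were lower and none higher in CP70, 8 were lower and 1 higher in PEA2, and 5 were higher, 2 lower and 8 not called in PEO4. The one higher in PEA2 was ATP5O (0.37, limma FDR 0.019), a subunit of the outer stalk named here after its value was seen, and its call was lost after quantile scaling (FDR 0.108), after centring (0.0742), with only the libraries compared (0.0589), without PEA1 replicate 1 (0.0646) and without PEA2 replicate 2 (0.129). ATP5A1, the alpha subunit of the catalytic head, had 9.86, 9.73 and 10.04 in A2780 and 8.65, 8.60 and 8.56 in CP70. It had 9.04, 8.87 and 8.83 in PEA1 and 7.39, 7.95 and 7.68 in PEA2. In PEO1 it had 8.51, 8.49 and 8.59, and in PEO4 9.25, 9.02 and 9.19. It was thus 2.42-fold lower in CP70 and 2.36-fold lower in PEA2 but 1.54-fold higher in PEO4 (-1.27, -1.24 and 0.62, each ± 0.11 SE, limma FDR 1.58e-08, 1.35e-08 and 0.00018). ATP5A1 was the one gene of the 73 with a change of over 2-fold in the A2780 pair. Its partner in the head, the beta subunit ATP5B, changed far less, at -0.27 ± 0.08, -0.34 ± 0.08 and -0.13 ± 0.08, of which the first and second passed the test (limma FDR 0.00831 and 0.000877), the first not after quantile scaling (FDR 0.056).

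ATP5C1, the gamma subunit that forms the rotating stalk, and ATP5F1, a subunit of the outer stalk, had the largest falls of complex V in PEA2. ATP5C1 had 8.40, 8.23 and 8.45 in PEA1 and 6.89, 6.75 and 6.73 in PEA2. Its change was -1.57 ± 0.10 (SE; limma FDR 4.51e-11), and that of ATP5F1 was also -1.57 ± 0.10 (limma FDR 1.02e-10), each a 2.96-fold fall. In the PEO pair neither passed the test, with changes of 0.09 and -0.08. ATP5J, a coupling subunit of the outer stalk, rose in PEO4 by 1.24 ± 0.20 (limma FDR 3.88e-05).

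The ring of c subunits through which protons pass is encoded by 3 genes, ATP5G1, ATP5G2 and ATP5G3, whose mature proteins are the same. The 3 genes behaved differently in the PEO pair. ATP5G3 had 2.34, 1.60 and 2.38 in PEO1, from 15, 8 and 34 reads, and 5.89, 5.82 and 5.83 in PEO4, from 171, 169 and 140 reads. Its levels in the other lines were 8.13 ± 0.16 (SD, n = 3) in A2780, 7.78 ± 0.08 in CP70, 6.44 ± 0.33 in PEA1 and 6.11 ± 0.35 in PEA2. PEO1 was thus the line that stood apart. ATP5G3 was 13.4-fold higher in PEO4 than in PEO1 (3.74 ± 0.19 SE, limma FDR 1.56e-11). ATP5G1 went the other way, with 5.67, 5.73 and 5.54 in PEO1 and 4.43, 4.21 and 4.14 in PEO4, a 2.61-fold fall. ATP5G2 overlapped between the lines, at 5.70 to 6.23 in PEO1 and 5.75 to 5.85 in PEO4, and its change of -0.18 ± 0.12 did not pass the test (limma FDR 0.263).

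The sum of the 3 genes was then computed after these values were seen, as CPM per kb of each gene's canonical transcript. It was 456 ± 41 (SD, n = 3) in A2780 and 311 ± 19 in CP70, 342 ± 18 in PEA1 and 223 ± 22 in PEA2, and 180 ± 15 in PEO1 and 140 ± 4 in PEO4. On this scale, the highest library of the resistant line lay under the lowest of the sensitive line in each pair. In the PEO pair this order depends on the lengths, which were 646, 632 and 2587 bases for ATP5G1, ATP5G2 and ATP5G3. In plain CPM, without division by length, the sum in every PEO4 library lay above that in every PEO1 library. The order in the other pairs was the same on both scales. On this scale ATP5G3 made up 0.960% ± 0.292 of the sum in PEO1 and 15.9% ± 0.2 in PEO4, and 23.8% ± 1.2 in A2780. ATP5G1 made up 43.4% ± 5.4 in PEO1 and 21.3% ± 2.0 in PEO4. These sums and shares depend on the transcript length taken for each gene, and the files do not tell which transcripts were present.

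**Figure D4:**
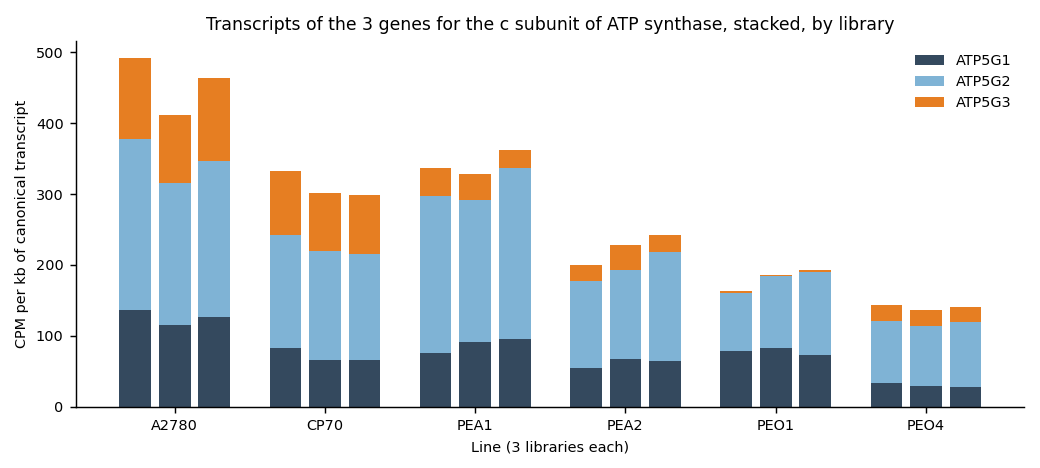
Level of ATP5G1, ATP5G2 and ATP5G3, stacked, in each of the 18 libraries (CPM per kb of canonical transcript, vertical axis from 0). ATP5G3 was almost missing from the 3 PEO1 libraries. On this scale the summed level was lower in each resistant line (311, 223 and 140) than in its sensitive line (456, 342 and 180). In plain CPM the order in the PEO pair was reversed.

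The pairs were compared directly through the difference of their changes. This difference passed an FDR of 0.05 in limma for 28 genes between the A2780 and PEA pairs, for 24 between the A2780 and PEO pairs and for 32 between the PEA and PEO pairs, beside 57.5%, 47.5% and 58.7% of all genes. ATP5G3 differed most, by -4.09 ± 0.28 (SE) between the A2780 and PEO pairs and by -4.07 ± 0.28 between the PEA and PEO pairs (limma FDR 2.64e-10 and 2.72e-10). For SDHA none of the 3 differences passed (0.05, 0.00 and -0.04, each ± 0.14), and for ATP5L none passed either (0.16, 0.22 and 0.06, each ± 0.17). For ATP5G1 the fall in PEO4 was larger than in CP70 by 0.56 ± 0.19 and than in PEA2 by 0.89 ± 0.19 (limma FDR 0.0223 and 0.000525).

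The genes are spread over many chromosomes, and their changes were set beside those of other genes within 5 Mb, with members left out. Across the 73 genes the rank correlation between a gene's change and the median change of its neighbours was 0.17 for CP70, 0.73 for PEA2 and 0.51 for PEO4 (Pearson 0.41, 0.73 and 0.62). These are descriptions over genes that share libraries and, in part, neighbours. COX7C rose by 2.09 in PEA2 where its neighbours had a median of 2.36, and ATP5C1 and ATP5F1 fell by 1.57 where their neighbours had -1.22 and -1.17. NDUFB5 (1.22 in PEA2, neighbours 1.11), NDUFA6 (1.05, neighbours 1.21), COX7A2 (1.30, neighbours 1.23) and UQCR10 (1.35, neighbours 1.20) lay close to their surroundings too. ATP5A1, which changed by -1.27 in CP70, had neighbours at -0.78 there, and -1.04 in PEA2.

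Some members departed from the genes around them. SDHA changed by -0.43 in PEA2 within a region at 0.95. UQCRFS1 rose by 0.64 in a region at -0.49, and COX7B by 0.43 in a region at -0.62. UQCRH lay at -3.77 in a region at -0.42, and ATP5G3 at 3.74 in PEO4 in a region at 0.69. The gene nearest to ATP5G3, ATF2, was higher in PEO4 by 1.44 (limma FDR 3.65e-08), less than ATP5G3 itself. ATP5G1 fell by 1.38 in PEO4 in a region at 0.13.

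**Figure D5:**
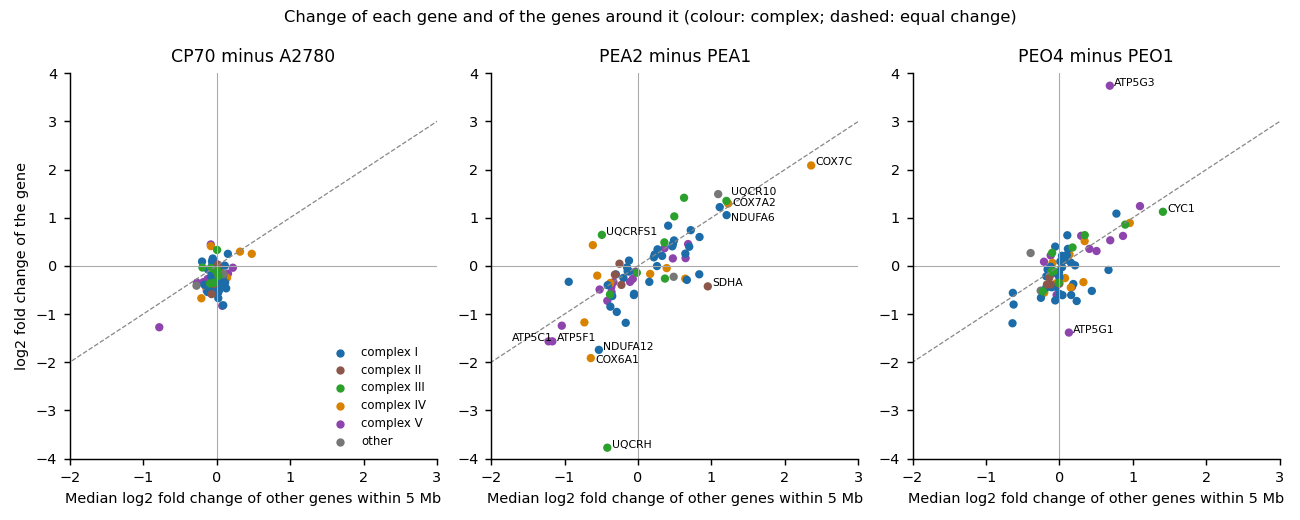
Change of each of the 73 genes (log2 fold change, vertical axis) against the median change of the other genes within 5 Mb (horizontal axis) in the 3 pairs, coloured by complex, with a dashed line of equal change. Genes followed the line in PEA2 (rank correlation 0.73) more than in CP70 (0.17), and UQCRH, ATP5G3 and SDHA were among those away from it.

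By chromosome, all 4 members on chromosome 8 (CYC1, UQCRB, NDUFB9 and COX6C) were called higher in PEO4, where 35.8% of the other genes of the chromosome were, and 3 of the 4 were lower in PEA2, where 40.6% of the others were. The PEO4 call of UQCRB was lost without PEO1 replicate 1, PEO4 replicate 1 or PEO4 replicate 2 (FDR 0.0579 to 0.0686), and without the variance trend (FDR 0.0502). The PEA2 calls of UQCRB and COX6C were each lost without PEA1 replicate 1, PEA1 replicate 2 or PEA2 replicate 1, and that of COX6C also without PEA2 replicate 3 (FDR 0.0507 to 0.215). All 3 members on chromosome 21 (ATP5J, ATP5O and NDUFV3) were higher in PEO4, with 64.2% of the other genes. All 3 on chromosome 22 (NDUFA6, UQCR10 and UQCRFS1P1) were higher in PEA2, with 77.2% of the other genes. On chromosome 12, 4 of 5 were lower in PEA2, with 44.7% of the others. The number of gene copies in these lines was not measured here, and its part was not tested.

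Other genes of the pathway were taken from lists, whose counts stand beside the same shares of all genes called (22.2% higher and 17.7% lower in CP70, 32.5% and 29.4% in PEA2, 19.6% and 21.9% in PEO4). Of 42 assembly factors, which help to build the complexes without being part of them, 2 were higher and 10 lower in CP70, 12 higher and 11 lower in PEA2, and 4 higher and 8 lower in PEO4. FOXRED1, a complex I assembly factor, had the largest called fall in CP70 (-1.93), and COX11, which delivers copper to complex IV, in PEA2 (-2.28). COX17, a copper chaperone, had the largest called rise in PEA2 (2.04), from at most 7 reads in a PEA1 library and at most 40 in a PEA2 library. Of 14 regulators of mitochondrial biogenesis, none was higher and 5 were lower in CP70, 6 were higher and 5 lower in PEA2, and 3 were higher and 5 lower in PEO4. TFAM, which packages and transcribes mitochondrial DNA, was the lowest in CP70 at -1.52. In PEA2 ESRRA rose by 1.87, and in PEO4 TFB2M fell by 1.43. Of 14 enzymes of the citric acid cycle, 3 were higher and 5 lower in CP70, 3 higher and 7 lower in PEA2, and 1 higher and 6 lower in PEO4. IDH2 was higher in CP70 (1.05) and PEO4 (1.32) and lower in PEA2 (-1.21). Among 7 further nuclear genes of the chain outside the naming rule, 5 were higher in PEA2 and 1 lower, and 3 were lower in CP70, with none higher. In PEO4, 1 was higher and 1 lower. Cytochrome c itself (CYCS) went both ways, at -0.65 in CP70, 0.67 in PEA2 and -0.37 in PEO4 (limma FDR 0.000935, 0.000373 and 0.041).

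Counting may blur some of these genes. Of the 73, 46 have annotated pseudogenes named for them, whose reads may have been assigned to either, and 2 (NDUFB2 and NDUFS3, the latter a core gene of complex I) overlap another listed gene on the same strand. A further limit is the gene set: the deposited table is what was tested, and the reads of genes outside it did not enter any share given here.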

How the data were processed

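RNA-seq of 18 libraries was used, 3 each of A2780, CP70, PEA1, PEA2, PEO1 and PEO4. The authors made rRNA-depleted directional libraries (NEBNext Ultra Directional), and the submitters' processing notes name Bowtie2, featureCounts, limma and the build hg19. The authors assigned reads to known genes and deposited a table of 12853 genes in log2 CPM, for which each count had been raised by 0.5 reads and divided by a scaled library total. The members and gene lists were chosen with earlier results of these data known. Whole reads were recovered from the log2 values (tolerance 0.01 of a read) and served only for depth, floors and weights. Every column of sample values was used.

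Differences were tested on the deposited log2 values with limma 3.58.1 in R 4.3.3, in 1 fit of 18 libraries with a mean per line, the prior variance being allowed to follow mean expression. FDRs are Benjamini-Hochberg over 12853 genes. In the model over all pairs, terms for pair and for sensitivity were fitted, and differences between pairs were contrasts of the first fit. The fits were tested on simulated data. The named genes were those with |log2FC| above 1 at an FDR below 0.05 in a pair, those called in 1 direction in all 3 pairs, the highest and lowest of each complex in each pair, the catalytic and redox subunits and the isoform groups. The highest and lowest called genes of the context lists could be named too. Exceptions are said to be so where they appear. Gene spans and canonical transcript lengths came from GENCODE on GRCh37, in which 12642 of the table's identifiers were found and 211 were not, and promoters came from RefSeq on GRCh38.p14, matched by present symbol. Libraries held 1344098 to 7067336 reads on listed genes. A floor of 3 reads covers counting error only.

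Replicate numbers were in the labels, and same-numbered libraries were checked for shared deviations. Alternatives were fitting only the libraries compared, a filter on the mean log2 value (above 0), quantile scaling, centring on the median, a replicate block, no variance trend, voom weights, members with a mean above 4, and leaving out each library. Leaving out UQCRFS1P1 and ATP5S was added after the data were seen. Columns of other assays of the study were not used here. The values of 1 member that the naming rule covers are not reported here, though it stands in the counts.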

Additional observations from a re-analysis of the deposited data

Results flagged for a closer look

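The changes of the genes differed between pairs for 28 genes between the A2780 and PEA pairs, for 24 between the A2780 and PEO pairs and for 32 between the PEA and PEO pairs, by limma contrasts at an FDR of 0.05. These are less than the shares of all genes given with the comparison above. Genes that were called in opposite directions in both pairs, and whose difference also passed, are given here. Their names were chosen by that criterion after their values were seen.

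Between the A2780 and PEA pairs, the difference (change in the A2780 pair minus change in the PEA pair) was -1.74 for NDUFB5, 1.58 for COX5A, -1.10 for COX7B, -0.72 for NDUFS3 and -0.70 for ATP5O. Several of these opposite calls depended on single libraries or on the scaling. The rise of NDUFS3 in PEA2, of 0.34, was lost in 8 of 25 alternatives: without PEA1 replicate 1 (FDR 0.0966), PEA1 replicate 3 (0.101), PEA2 replicate 2 (0.0927) or PEA2 replicate 3 (0.058), after quantile scaling (0.109) and centring (0.118), with only the libraries compared (0.0863) and with voom weights (0.0901). Its fall in CP70 was lost without A2780 replicate 1 (FDR 0.147), A2780 replicate 3 (0.0712), CP70 replicate 2 (0.143) or CP70 replicate 3 (0.0636). The fall of ATP5O in CP70 was lost in 8 of 25 alternatives, 6 of which left out 1 library (A2780 replicate 1 or 3, CP70 replicate 2 or 3, PEA1 replicate 3, or PEO4 replicate 1), with an FDR of at most 0.167. Its rise in PEA2 was lost in 5, among them both other scalings, with an FDR of at most 0.129.

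Between the A2780 and PEO pairs it was -1.90 for ATP5A1, -1.02 for ATP5H, -0.96 for ATP5O and -0.96 for COX6C. All 4 genes were lower in CP70 and higher in PEO4. The fall of COX6C in CP70 was lost without A2780 replicate 1 (FDR 0.0631), A2780 replicate 3 (0.145), CP70 replicate 2 (0.0645) or CP70 replicate 3 (0.0723).

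Between the PEA and PEO pairs it was 2.25 for NDUFA6, 2.02 for NDUFB5, -1.87 for ATP5A1, 1.35 for NDUFA9, -1.23 for UQCRB, -1.22 for NDUFB9, -0.97 for ATP5H, -0.96 for NDUFA10 and -0.87 for COX6C. NDUFA6, NDUFB5 and NDUFA9, subunits of complex I, were higher in PEA2 and lower in PEO4, and the other 6 went the opposite way. UQCRB was called with a wide spread in PEA1 (6.18, 6.82 and 5.46), and its PEA call had an FDR of 0.213 without PEA1 replicate 2, 0.11 without PEA2 replicate 1 and 0.0507 without PEA1 replicate 1. Its PEO call had an FDR of 0.0686 without PEO1 replicate 1, 0.0623 without PEO4 replicate 1 and 0.0579 without PEO4 replicate 2. The fall of COX6C in PEA2 was lost in 8 of 25 alternatives, with an FDR of 0.215 without PEA1 replicate 2, and that of NDUFA9 in PEO4 without PEO1 replicate 1 (FDR 0.0627), PEO1 replicate 3 (0.192), PEO4 replicate 1 (0.0913) or PEO4 replicate 3 (0.109). The rise of NDUFA10 in PEO4 was lost without PEO4 replicate 3 (FDR 0.0525). Groups of 3 libraries were not tested for outlying libraries.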

How the results depend on the processing

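With only the libraries compared in each fit, 20 genes were lower in PEO4 in place of 13, and the model over all pairs, with pair differences as replicates, called 0 in place of 21 (0 higher, 0 lower). Fewer samples enter the latter, and no share of all genes was taken for it. Genes called higher by that model numbered 4, against 2 after quantile scaling, 2 after centring, 2 with a replicate block, 2 without the variance trend and 1 with voom weights. Genes called higher in CP70 numbered 1, against 2 after quantile scaling and 2 with voom weights. The median change in PEA2 was -0.28 after quantile scaling and -0.27 after centring. Apart from leaving out single libraries, the other alternatives kept these counts within 1.5 times and the medians within 1 SD between libraries.

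Leaving out 1 library at a time gave 0 to 2 genes higher in CP70 (0 without CP70 replicate 1, 2 without PEA2 replicate 2), and 1 to 2 past 2-fold there (2 without A2780 replicate 2). It gave 2 to 5 genes higher in the model (2 without any library of PEA1, PEO1 replicates 1 and 2, any library of PEO4, or PEA2 replicates 2 and 3). Median changes ranged from -0.21 to -0.066 in PEA2 (the latter without PEA2 replicate 1) and from -0.16 to -0.039 in PEO4 (the latter without PEO4 replicate 2). The PEA2 median moved by over 1 SD between libraries without PEA2 replicate 1. That of PEO4 did so without PEO1 replicate 2 (-0.15), PEO1 replicate 3 (-0.093), PEO4 replicate 2 or PEO4 replicate 3.

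For the 73 genes, 0 of 5475 values under alternatives changed direction with a call, 128 lost a call and 87 gained one; the cause was not tested.

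The replicate numbers did not pair the libraries: correlations of the deviations of same-numbered libraries ran from -0.15 to 0.17. With the replicate block 20, 39 and 27 genes were called in the 3 pairs and 18 in the model, and calls were lost by UQCRC2 in the PEO pair (FDR 0.0588), ATP5O in the A2780 pair (FDR 0.0599) and COX6C in the PEA pair (FDR 0.0521), while NDUFS7 in the A2780 pair gained one (FDR 0.0448).

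Depth limits UQCRH in the PEA lines, ATP5G3 in PEO1 and, among the assembly factors named, COX17 in PEA1, where few reads stand behind a value.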
